A study of Mus musculus with 16 samples.

Results

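The genes described here encode parts of the sperm tail and proteins of late spermatids: the outer dense fibre genes Odf1, Odf2, Odf3 and Odf4, the fibrous sheath genes Akap3, Akap4 and Cabyr, and the late spermatid genes Spata18, Fscn3 and Oaz3. They were chosen by symbol, with earlier results of these data known. All 10 were found among the 38087 genes of the table of exon counts. Total RNA of whole ovaries and whole testes was sequenced from conventionally raised mice (CV), which carry a gut microbiota, and in germ-free mice (GF), which carry no microbes. The strain given for every library is C57BL/6j, the age 15 to 16 weeks, the collection time 2 to 4 h after lights on (zeitgeber time), and feeding was ad libitum. There were 4 CV and 5 GF ovary libraries from females, and 4 CV and 3 GF testis libraries from males. Whether each library stands for its own animal is not stated in the labels, and the p-values then cover only the spread between libraries, part of which may be technical. Tissue and sex are the same factor in this design, and the labels give no batch, cage or litter.

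The sperm tail is built by spermatids, the haploid germ cells that reshape themselves into sperm. Outer dense fibres run along the microtubule core of the tail and stiffen it, and in the principal piece a fibrous sheath surrounds them and holds enzymes of signalling and glycolysis. The genes for these structures are transcribed in haploid cells, largely before the chromatin is packed with protamines, so their RNA is a readout of spermatids in a whole testis. Odf2 differs from the rest in that a form of its protein, cenexin, also sits at centrioles of ordinary and ciliated cells.

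Promoter sequences are shown first, because they are where 2 of the genes turned out to share letters. RefSeq windows of GRCm38.p6, from 250 bases before to 50 bases after a start, held 7 of the 10 genes in 11 windows: Odf2, Odf3, Odf4, Akap3, Akap4, Spata18 and Fscn3. Odf1, Oaz3 and Cabyr are named only. The 100 bases before the start are printed 5′ to 3′ for the pair of anchoring genes of the fibrous sheath and for Spata18, each on the plus strand. Akap3 lies at chr6:126852998-126853097, Akap4 at chrX:7067415-7067514 and Spata18 at chr5:73651280-73651379. Capitals mark the longest run that Akap3 and Akap4 have in common and, in Spata18, the reverse complement of TGACG.

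Akap3: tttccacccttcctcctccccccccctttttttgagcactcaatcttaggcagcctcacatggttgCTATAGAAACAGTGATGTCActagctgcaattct

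Akap4: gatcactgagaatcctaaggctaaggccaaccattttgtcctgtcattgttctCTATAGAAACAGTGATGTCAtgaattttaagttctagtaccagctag

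Spata18: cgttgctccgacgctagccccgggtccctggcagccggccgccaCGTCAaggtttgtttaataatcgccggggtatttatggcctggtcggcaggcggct

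The run shared by Akap3 and Akap4 is 20 letters long, at bases -34 to -15 of Akap3 and -47 to -28 of Akap4, counted from the start with the base before it as -1. It occurred in 2 of all 32851 windows, those of Akap3 and Akap4. The next longest run that windows of 2 of these genes share, between Odf2 and Akap3, is 14 letters of a pyrimidine-rich stretch. Both strands were searched for 4 known motifs and 1 that was added after the promoters were seen. The cAMP response element TGACGTCA, which binds the spermatid regulator CREM, was in 0 of the 7 genes' windows and in 1.79% of all windows. TGATGTCA, the added motif, closes the shared run and was in Akap3 and Akap4 and in 3.62% of all windows. The first letters of the cAMP response element, TGACG, was in Odf2 and Spata18 and in 20.8% of all windows. GTTGCC, a part of the X-box bound by RFX factors, was in Fscn3 and Odf3 and in 12.5% of all windows, and TATAAA was in Fscn3 and in 13.6%. A match describes letters in the window and nothing about binding, which was not measured.

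Total counts ran from 12912251 to 15907297 in the ovary libraries and from 25880591 to 28266867 in the testis libraries. Levels are given as CPM, counts scaled to a common library size, computed here from the deposited counts with library sizes scaled by TMM, edgeR's normalisation. The biological coefficient of variation between libraries of a group was 4.17% in the testis and 18.5% in the ovary. Over all genes, CV testes 1 and 4 differed most of the testis pairs within a group, at a chi-square per degree of freedom of 5.17. In epididymis markers 1 library stood apart: GF testis 1 held 48 CPM over 8 of them, against 6.19 to 8.04 CPM in the other testes. Crisp1, a secreted protein of the epididymal duct, gave 31.8 CPM of this sum. For the members and lists, counts of genes called between GF and CV testes are given with and without GF testis 1 where they differ. Percentages of all genes include that library. Nnt is a gene in which C57BL/6 substrains are known to differ. It ran from 75.5 to 79.6 CPM in CV testes and from 97.5 to 104 CPM in GF testes, without overlap. In the ovary Nnt ran from 70.7 to 76.4 CPM in CV and from 137 to 189 CPM in GF libraries, also without overlap. A substrain difference between the colonies and the absence of microbes cannot be told apart here.

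In the testis these 10 genes are abundant. Together they took 1.12% to 1.17% of all counts in CV and 1.1% to 1.14% in GF libraries. Levels of different genes were compared per kilobase of exon, in CV testes, over 19808 genes with a length. Odf1, a small heat shock-like protein that is a main component of the outer dense fibres, stood highest of the members at 1103 ± 35.7 CPM per kb (SD, n = 4), rank 14 of all genes. Akap4, the main structural protein of the fibrous sheath and an anchor for protein kinase A, followed at 771 ± 17 CPM per kb, rank 27. Akap3, a second anchoring protein that enters the sheath earlier, Odf2 and Oaz3 came next at 391 ± 12.8, 371 ± 8.36 and 360 ± 10.9 CPM per kb, and the CV ranges of these neighbours overlapped. Spata18, known as a protein of mitochondrial quality control, stood at 309 ± 3.88 CPM per kb. Odf4, a membrane protein of the tail, stood at 170 ± 3.46, the calcium-binding sheath protein Cabyr at 137 ± 6.14, the germline fascin Fscn3 at 106 ± 2.85 and Odf3 at 78.3 ± 5.93 CPM per kb, rank 953. The CV ranges of those last 4 genes did not overlap.

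The length used changes this order, most for 2 genes with long annotated exons outside their main transcript. The ranks among all genes given above rest on the exons of all transcripts. Odf2 has 9919 bases of exon over all transcripts and 2450 in its principal transcript, and Oaz3 has 4326 and 732. Per kilobase of the principal transcript, a choice made after the data were seen, Oaz3 led at 2125 ± 64.6, followed by Odf2 at 1503 ± 33.8, Odf1 at 1103 ± 35.7 and Akap4 at 819 ± 18 CPM per kb (SD, n = 4 CV testes). Odf3 then stood above Fscn3, at 143 ± 10.9 against 116 ± 3.12 CPM per kb, and its range overlapped that of Cabyr.

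The contrast of germ-free with conventional testes asks whether tail gene RNA differs in males without microbes. Of the 10 genes, 4 fell in GF testes by edgeR's quasi-likelihood F test at an adjusted p (Benjamini-Hochberg) under 0.05: Odf1, Cabyr, Spata18 and Oaz3. No member rose. The differences were small: Oaz3 dropped by 6.33% and Odf1, at the other end, dropped by 9.85%. Odf2, Odf3, Odf4, Akap3, Akap4 and Fscn3 did not pass the test. Over all 20269 genes tested, 8.08% were called and 4.41% were called lower. Among the 2429 genes whose testis mean reached 100 CPM, the range in which all 10 members lie and where counting error is small, 11.2% were called lower. The members' median log2 fold change was -0.08, against 0.00 over all genes tested. Of the 10, 8 were negative, as were 48.8% of all genes tested. The members were chosen with earlier results of these data known. Their counts beside those of all genes are therefore a description and no test of the set.

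**Figure D1:**
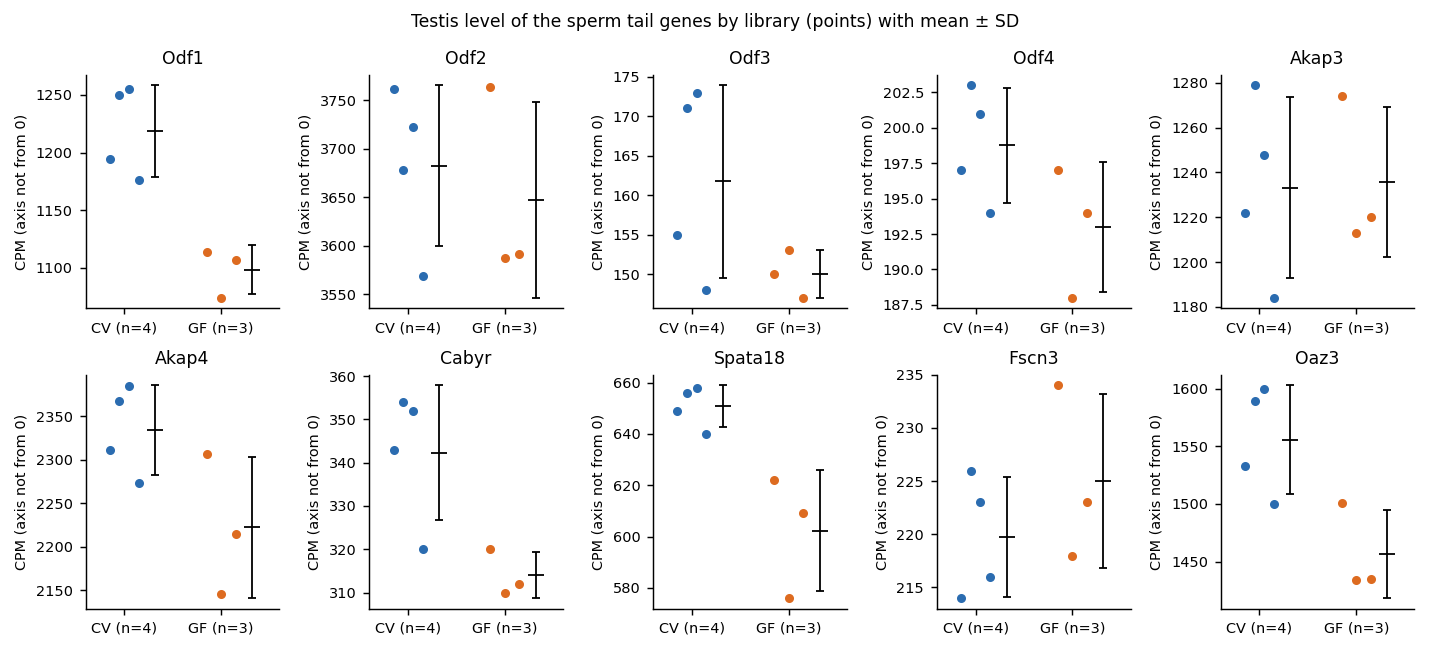
Level of each gene in CPM (y axis, not starting at 0) in 4 CV testes (blue) and 3 GF testes (orange), 1 point per library, with the mean and SD as bars. For Odf1, Cabyr and Spata18 the GF points lie below every CV point, while for Odf2, Akap3 and Fscn3 the ranges of the groups overlap.

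Odf1 (chromosome 15, 38219203 to 38226735, plus strand of GRCm38, which mm10 denotes) gave the largest difference of the 10. Its level was 1194, 1250, 1255 and 1176 CPM in the CV testes and 1114, 1074 and 1107 CPM in the GF testes. Every GF library lay below every CV library. The log2 fold change was -0.15 (SE 0.0267, edgeR adjusted p = 0.000131), so its level dropped by 9.85%, and it remained called whichever single library was left out.

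Odf2 (chromosome 2, 29889221 to 29931746, plus strand), whose coiled-coil protein forms the fibres together with Odf1, did not move with it. It was at 3761, 3678, 3722 and 3569 CPM in CV and at 3764, 3587 and 3591 CPM in GF testes. GF testis 1 was the highest of all 7 libraries and the other GF testes lay near the lowest CV library. The log2 fold change was -0.01 (SE 0.0243, edgeR adjusted p = 0.824).

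Odf3 (chromosome 7, 140847805 to 140851018, plus strand), a filament-associated protein of the flagellum, read 155, 171, 173 and 148 CPM in CV and 150, 153 and 147 CPM in GF testes. CV testes 2 and 3 were high, CV testis 1 lay just above the GF libraries and CV testis 4 lay among them. Its log2 fold change of -0.10 (SE 0.0469) missed the threshold at an edgeR adjusted p of 0.231, and without CV testis 4 it passed at an adjusted p of 0.000901. Odf4 (chromosome 11, 68921835 to 68927081, minus strand) was at 197, 203, 201 and 194 CPM in CV and at 197, 188 and 194 CPM in GF testes, with overlapping groups and a log2 fold change of -0.04 (SE 0.0305, edgeR adjusted p = 0.496).

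Among the fibrous sheath genes, Cabyr fell and the 2 anchoring proteins did not pass the test. Cabyr (chromosome 18, 12740322 to 12755260, plus strand) read 343, 354, 352 and 320 CPM in CV and 320, 310 and 312 CPM in GF testes. The lowest CV and the highest GF library were level when rounded, with the CV library above by less than 1 CPM. The log2 fold change was -0.12 (SE 0.0311, edgeR adjusted p = 0.00747), so its level dropped by 8.23%. Without GF testis 2 the adjusted p was 0.0613.

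Akap4 (chromosome X, 7067519 to 7078609, plus strand) read 2311, 2367, 2385 and 2273 CPM in CV and 2307, 2145 and 2214 CPM in GF testes. GF testis 1 lay among the CV libraries and the other GF testes lay below them. Its log2 fold change of -0.07 (SE 0.0257) missed the threshold at an edgeR adjusted p of 0.0877. Without GF testis 1, the library with the epididymis marker, the adjusted p was 0.0144, and without CV testis 4 it was 0.00764. Akap3 (chromosome 6, 126853098 to 126874308, plus strand) was at 1222, 1279, 1248 and 1184 CPM in CV and at 1274, 1213 and 1220 CPM in GF testes. The groups overlapped throughout, and the log2 fold change of 0.00 (SE 0.027, edgeR adjusted p = 0.971) changed sign with the scaling used. Akap3 and Akap4, which share the promoter run shown above, were thus both not called, at log2 fold changes of 0.00 and -0.07, and the difference between them was not tested.

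Of the late spermatid genes, Spata18 and Oaz3 fell. Spata18 (chromosome 5, 73651379 to 73679512, plus strand) read 649, 656, 658 and 640 CPM in CV and 622, 576 and 609 CPM in GF testes. All GF libraries lay below all CV libraries, and GF testis 2 was the lowest. The log2 fold change was -0.11 (SE 0.0276, edgeR adjusted p = 0.006), so its level dropped by 7.47%, and without GF testis 2 the adjusted p was 0.111.

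Oaz3, the antizyme made in haploid germ cells, a regulator of polyamine levels, read 1533, 1589, 1600 and 1500 CPM in CV and 1501, 1434 and 1435 CPM in GF testes. GF testis 1 reached the lowest CV library, so the groups overlapped at their edges. The log2 fold change was -0.09 (SE 0.0264, edgeR adjusted p = 0.0181), so its level dropped by 6.33%. Leaving out CV testis 2, CV testis 3, GF testis 2 or GF testis 3 ended the call, at adjusted p-values of 0.0539, 0.0874, 0.116 and 0.121. Oaz3 (chromosome 3, 94432414 to 94443915, minus strand) shares 2255 exon bases with Tdrkh and 157 with Mrpl9 on the other strand. Tdrkh had 329 to 713 and Mrpl9 529 to 635 counts per testis library. The library kit keeps strand, but whether counting used it is not given in the sources used here.

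Fscn3 (chromosome 6, 28427789 to 28438622, plus strand), the fascin of spermatids that bundles actin, was at 214, 226, 223 and 216 CPM in CV and at 234, 218 and 223 CPM in GF testes. The highest value was a GF library and the groups overlapped, with a log2 fold change of 0.03 (SE 0.0314, edgeR adjusted p = 0.651). It shares 58 exon bases with Gcc1, a gene of the other strand with 1171 to 1289 counts per testis library.

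**Figure D2:**
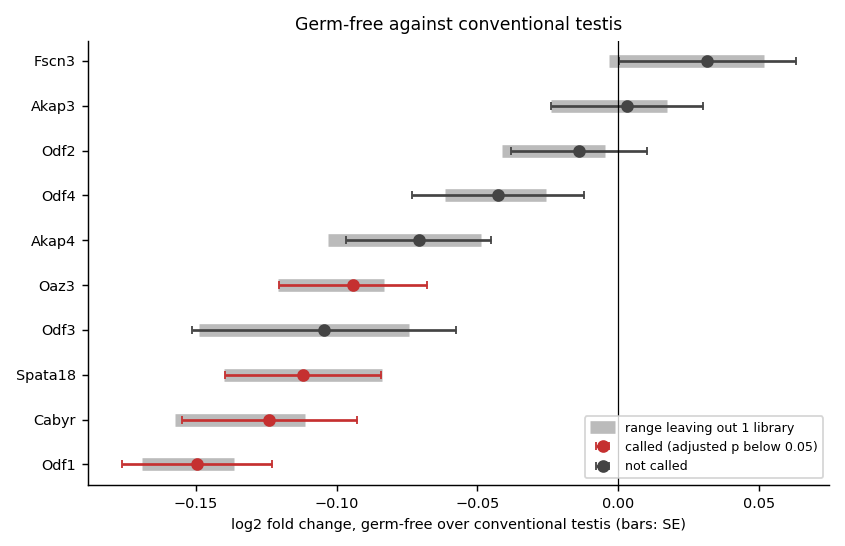
Log2 fold change of each gene in GF over CV testes (x axis) with its standard error as bars, coloured by whether edgeR called it, and in grey the range over fits that each leave out 1 of the 7 libraries. Odf1 at -0.15 lies farthest to the left, and Akap3 and Fscn3 are the genes whose grey range crosses 0.

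Group ranges in which every GF library lay below every CV library were found for 3 of the 10 genes, Odf1, Cabyr and Spata18, and for 8.48% of all genes tested. The count of 4 members called was 5 without GF testis 1, 6 without CV testis 4 and 1, Odf1, without GF testis 2. In the same order, 709, 1197 and 561 of all genes tested were called lower, in place of 894. All genes called, in either direction, numbered 1278 without GF testis 1, in place of 1638. When all 16 libraries were fitted together, so that the larger spread of the ovary entered the estimate, none of the 10 was called, and 122 genes were called in place of 1638. In whole tissue, fewer spermatids and less RNA per spermatid cannot be told apart.

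A ratio of 2 genes within a library needs no scaling between libraries. Per 100 counts of Odf2, Odf1 had 31.7, 34, 33.7 and 32.9 counts in CV testes and 29.6, 29.9 and 30.8 in GF testes. Every GF value lay below every CV value. The difference between the pair of fibre genes was not tested. The same separation was seen for Oaz3, with 40.8 to 43.2 counts in CV and 39.9 to 40 in GF testes, for Spata18, with 17.3 to 17.9 against 16.1 to 17, and for Cabyr, with 8.97 to 9.62 against 8.5 to 8.68. Of the 20268 other genes tested, 6.72% had a ratio to Odf2 that separated in the same way. Akap4 overlapped at 61.5 to 64.4 against 59.8 to 61.7, and Akap3 lay within the CV range of 32.5 to 34.8 at 33.8 to 34. Ratios of Odf3, Odf4 and Fscn3, whose CPM ranges overlapped between the groups, are not given. Odf2 itself had a log2 fold change of -0.01, so the ratios given largely repeat the CPM comparison.

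Spread between libraries is given as the coefficient of variation of CPM. Within CV testes it ran from 1.26% for Spata18 to 7.57% for Odf3, and within GF testes from 1.67% for Cabyr to 3.89% for Spata18. The medians over all genes tested were 7.19% and 6.36%, and over the genes of at least 100 CPM 2.68% and 2.24%. The members thus lay around the median of genes of like level, and Odf3 in CV testes lay above that of all genes.

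Other genes were counted from lists of components of the same structures and of genes associated with them or named like them. These lists too were chosen with earlier results of these data known, so their counts are a description. Of 15 further outer dense fibre and associated genes tested, 3 fell and none rose, with a median log2 fold change of -0.03. They were Spatc1l, listed as 1700027D21Rik, from 130 ± 4.36 to 110 ± 3.2 CPM (edgeR adjusted p = 2.35e-06), Odf3l1, a relative of Odf3, from 65.3 ± 1.73 to 55.2 ± 0.666 CPM (edgeR adjusted p = 4.95e-05), and the spermatid kinase Tssk4, from 108 ± 5.62 to 93 ± 2.55 CPM (edgeR adjusted p = 0.000145; SD, n = 4 and 3). Their log2 fold changes were -0.25, -0.24 and -0.21, and each stayed called whichever single testis library was left out. The count of 3 was 4 without GF testis 1 and 5 without CV testis 4. The list also holds genes for which no place in the fibres is shown here, such as Odf2l, Oip5 and Cep131. Their log2 fold changes were -0.06, 0.17 and 0.04, and none of them was called.

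Of 16 other fibrous sheath genes, 6 fell, none rose and 14 were negative, with a median of -0.07. Aldoart1, a germline aldolase of the sheath, fell from 149 ± 1.75 to 123 ± 1.37 CPM, a log2 fold change of -0.28 (SE 0.0316, edgeR adjusted p = 3.17e-08). Its relative Aldoart2 fell from 316 ± 12.2 to 282 ± 8.85 CPM, and the calcium-binding Cabs1 from 769 ± 14.7 to 700 ± 17.7 CPM. Akap14, an anchoring protein of low level, fell from 16.9 ± 1.11 to 14.2 ± 0.881 CPM. Aldoart1, Aldoart2 and Cabs1 stayed called whichever library was left out. They were the 3 genes of the 16 called without GF testis 1 and likewise without GF testis 2, and Akap14 lost its call without CV testis 1, GF testis 1 or GF testis 2 (adjusted p 0.0835, 0.0988 and 0.103).

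Genes of the mitochondrial sheath and annulus, which form the midpiece and its border, moved both ways. Of 15 tested, Glipr1l1, Armc12 and Gykl1 fell and Kif5c, a kinesin, rose from 35.6 ± 0.929 to 42.1 ± 3.68 CPM, and the median was 0.00. Kif5c was not called without GF testis 2, at an edgeR adjusted p of 0.0801. None of the 6 subunits of protein kinase A, the partner of Akap3 and Akap4, was called.

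Of 12 other anchoring proteins Akap9 was called lower at an edgeR adjusted p of 0.0494, next to the threshold. That call was lost when any library but CV testis 2 was left out, with adjusted p-values of 0.0562 to 0.19, the highest of them without GF testis 1. In the polyamine list of 9, Odc1, whose enzyme antizymes inhibit, rose from 400 ± 6.52 to 430 ± 9.47 CPM (edgeR adjusted p = 0.01). Srm, which makes spermidine, fell from 4.82 ± 0.429 to 3.61 ± 0.314 CPM. Odc1 lost its call without GF testis 2 or GF testis 3 (adjusted p 0.0708 and 0.119), and Srm without CV testis 1, CV testis 3, GF testis 1 or GF testis 3 (0.0805 to 0.134). In the fascin and spermatid actin list, 5 of 11 fell, among them Actl7a, Actl7b, Actrt1 and Cylc1, and Actrt3 rose. Without GF testis 2 the count was 2 lower, Actl7a and Actl7b, which stayed called whichever library was left out, and without GF testis 3 it was 3 lower. The rise of Actrt3 was lost without CV testis 1, GF testis 1, GF testis 2 or GF testis 3, at adjusted p-values of 0.0575 to 0.119.

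Markers of other stages and cell types give the cellular background of these values. Of 13 round spermatid and acrosome genes, 9 fell, among them Spaca7, Izumo1, Acrv1 and Spaca4, with a median of -0.16, and their summed level was 1712 to 1819 CPM in CV and 1648 to 1676 CPM in GF testes. None of the 7 late spermatid chromatin genes was called, at 12378 to 13368 and 12156 to 12931 CPM summed. Of 20 other late spermatid genes Kif17 and Crem fell. Without GF testis 1, 5 of the round spermatid genes, 1 of the chromatin genes and 1 of the other late spermatid genes were called lower, and without CV testis 4 the counts were 9, 2 and 4. Without GF testis 2, 6 round spermatid genes were called lower. Spaca7, Izumo1, Acrv1, Spaca4 and Kif17 stayed called whichever library was left out. Crem encodes the regulator of many spermatid promoters and went from 235 ± 6.81 to 219 ± 3.78 CPM (edgeR adjusted p = 0.0274). Its call was lost without CV testis 1, CV testis 2, GF testis 1 or GF testis 2, at adjusted p-values of 0.0521 to 0.121.

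Spermatocyte markers summed to 3160 to 3240 CPM in CV and 3204 to 3228 CPM in GF testes. Of 12 tested, Piwil1 and Spo11 rose and Hspa2 fell. Piwil1 stayed called whichever library was left out. Spo11 lost its call without CV testis 3, GF testis 1 or GF testis 2 (adjusted p 0.0574 to 0.207), and Hspa2 without CV testis 1, GF testis 2 or GF testis 3 (0.0724 to 0.17). Spermatogonia markers summed to 129 to 132 and 129 to 139 CPM, and Uchl1 rose among 11, but not without CV testis 3 or GF testis 2 (adjusted p 0.0511 and 0.174). None of 12 Sertoli cell, 8 Leydig cell and 5 red blood cell genes was called, while 2 of 6 peritubular myoid genes (Acta2, Actg2) and 1 of 6 macrophage genes (Lyz2) were called lower. Without GF testis 1 the myoid count was 1, Actg2, and without GF testis 2 or GF testis 3 it was 0. Lyz2 lost its call whichever library was left out, at adjusted p-values of 0.0511 to 0.184. Summed myoid markers were at 343 to 352 CPM in CV and 308 to 328 CPM in GF testes. Median log2 fold changes of the somatic lists were -0.15 for myoid, -0.17 for macrophage, -0.05 for Sertoli cell and -0.0033 for Leydig cell genes. Values below 0 were thus not particular to spermatid lists. No list was wholly at 0 counts, and the part of these markers in the members' differences was not tested.

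**Figure D3:**
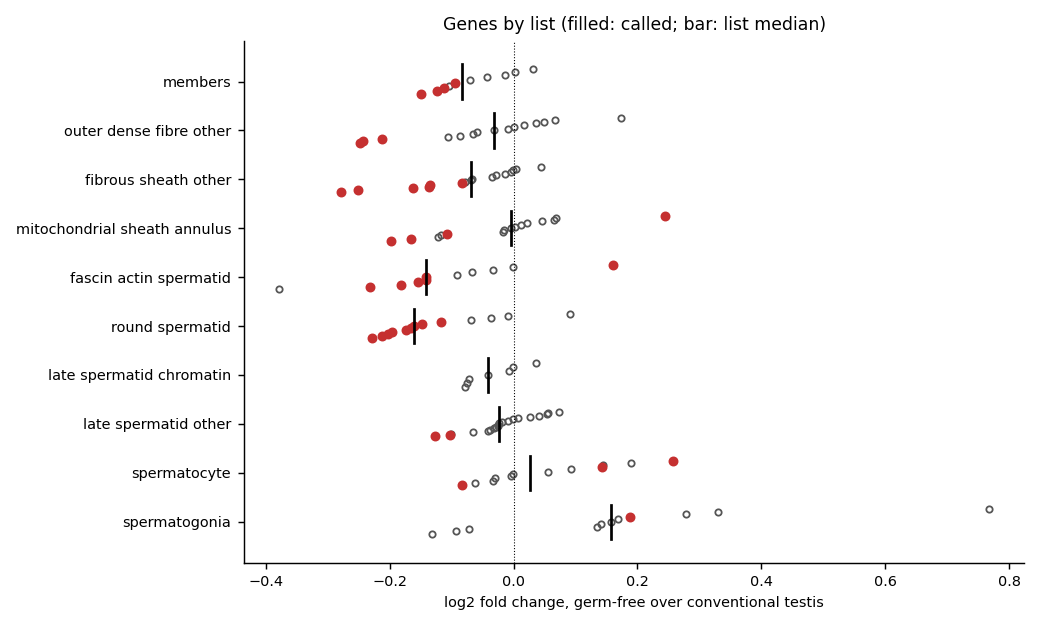
Log2 fold change in GF over CV testes (x axis) of every tested gene of 10 lists, 1 point per gene, filled red where edgeR called it, with the list median as a bar. The 10 sperm tail genes have a median of -0.08, between the round spermatid list at -0.16 and the late spermatid chromatin list at -0.04, and the spermatogonia list lies to the right at 0.16. Lists of somatic cells are not drawn, and medians of some are given in the text above.

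Over the 7 testis libraries, the genes most like the members in pattern were found among 10062 genes of at least 10 CPM by Pearson's correlation with the members' mean standardised log2 CPM, as a description. They were Ston1 and Fxr1 at r = 0.99, Spert and Laptm4a at 0.981 and Prm1 at 0.979, and none of them was called. Prm1, a protamine that packs sperm chromatin, went from 3007 ± 95.1 to 2861 ± 75.9 CPM. The points share their libraries and scaling. Among the members, Akap4 followed the mean of the other 9 most closely, at r = 0.955, and Fscn3 least, at 0.306.

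The contrast of testis with ovary asks how far each gene is restricted to the male gonad. All 10 genes were called higher in the testis, both in CV animals, where 91.2% of 21231 genes were called and 47.4% called higher, and in GF animals, where 89.2% of 21221 were called and 45.7% called higher. The ratios below are of counts per total count, with 95% exact intervals that cover counting error only. They depend on the scaling between tissues: the median log2 fold change of all genes was 0.11 in CV and 0.04 in GF animals with TMM, the scaling of the calls, and -0.69 and -0.75 with total counts. Of the genes called, 52% in CV and 51.3% in GF animals were higher in the testis with TMM, and 39.5% and 38.5% with total counts. All 10 members were called higher under both.

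Of the 7 genes with at most 8 counts in any ovary library, Akap4 was at 33279-fold in CV animals (12998 to 122143, 4 ovary counts over 4 libraries) and 20094-fold in GF animals (10198 to 46545), and Akap3 at 23437-fold (8019 to 113648) and 22355-fold (8731 to 82050). Oaz3 stood at 11086-fold (5626 to 25679) and 7530-fold (4488 to 13774), and Odf1 at 6949-fold (3779 to 14492) and 7228-fold (4039 to 14479). Odf3 had 2 ovary counts in CV animals, for 4606-fold (1275 to 38038), and 5 in GF animals, for 2177-fold (933 to 6706). Odf4 had 0 ovary counts in CV animals, and against a floor of 3 counts over the group it was at least 3777-fold higher. In GF animals it had 2 ovary counts and a ratio of 6978 (1932 to 57628). With so few ovary counts the intervals of several of these genes overlap, and Odf4, with a lower bound in CV animals, cannot be placed among them.

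Fscn3, also of those 7, was 837-fold higher in the CV testis (507 to 1495) and 1251-fold in the GF testis (732 to 2351), from 15 and 13 ovary counts. Cabyr was 464-fold higher (344 to 645) and 295-fold higher (236 to 374), from 42 and 77 ovary counts. With TMM its fitted folds were 803 and 504.

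Odf2 and Spata18 had a measurable level in the ovary libraries. Those libraries also held markers of ciliated and oviduct epithelium, given below, and the part of such cells in these ratios was not tested. Odf2 had 4913 and 6614 ovary counts over the CV and GF groups and was 42.7-fold (41.6 to 44) and 39.9-fold (38.9 to 40.9) higher in the testis. Spata18 had 985 and 1361 and was 37.7-fold (35.4 to 40.2) and 32-fold (30.3 to 33.8) higher. With TMM the fitted folds were 74.7 and 69.1 for Odf2 and 65.7 and 55.4 for Spata18.

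**Figure D4:**
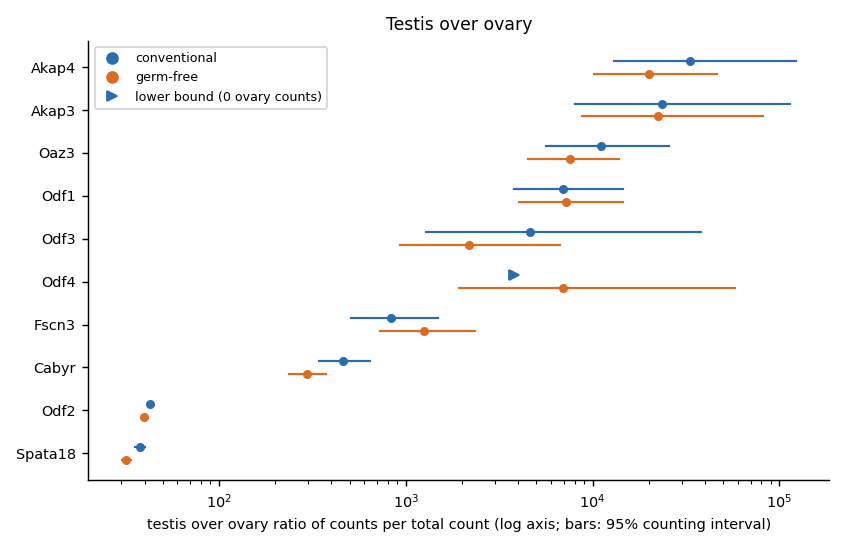
Ratio of testis to ovary counts per total count (x axis, log scale) for each gene in CV (blue) and GF (orange) animals, with 95% exact counting intervals and an arrowhead for a lower bound. Akap4 and Akap3 lie between 20094 and 33279, and Odf2 and Spata18 lie between 32 and 42.7, all with total count scaling.

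In the ovary, 3 of the 10 genes passed the filter on low counts, Odf2, Spata18 and Cabyr. The other 7 had between 0 and 8 counts in any ovary library. Odf2 was at 93, 80, 84.5 and 87 CPM in CV ovaries and at 95.3, 85.5, 82.5, 103 and 90.5 CPM in GF ovaries. The groups overlapped, and GF ovary 4 was the highest. The log2 fold change was 0.08 (SE 0.0732, edgeR adjusted p = 0.892).

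Spata18 was at 19, 14.5, 19 and 16.7 CPM in CV and at 19.2, 14.8, 18.4, 24.6 and 17.2 CPM in GF ovaries. GF ovary 4 was again the highest, and the log2 fold change was 0.12 (SE 0.145, edgeR adjusted p = 0.921). Without GF ovary 4 the log2 fold change of Spata18 was 0.0069 and that of Odf2 0.0387, so much of both values rests on that library. Cabyr lay near 1 CPM, at 0.593, 0.609, 0.687 and 1.08 CPM in CV and at 0.313, 1.65, 1.15, 1.62 and 0.772 CPM in GF ovaries, from 5 to 22 counts a library. Its GF values spanned the CV range on both sides, with a log2 fold change of 0.55 (SE 0.445, edgeR adjusted p = 0.878).

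Thus 0 of the 3 genes were called in the ovary by edgeR, DESeq2 or limma-voom, and 0 had an unadjusted edgeR p under 0.05. Of 18095 genes, 0.177% were called and 1172 had an unadjusted p under 0.05. All 3 fold changes were positive, as were 51.7% of those of all genes tested. The ovary libraries also held RNA of ciliated epithelium: 16 markers of somatic ciliated cells summed to 696, 556, 660 and 678 CPM in CV and to 706, 545, 591, 774 and 574 CPM in GF ovaries. GF ovary 4, highest for Odf2 and Spata18, was also highest in this sum. None of the 16 markers was at 0 counts over either group, and Foxj1, the master regulator of motile cilia, was at 62.4 ± 5.62 and 60 ± 10.6 CPM (SD, n = 4 and 5). Oviduct epithelium markers, 8 in all, summed to 3035 to 3648 CPM in CV and to 2004 to 3931 CPM in GF ovaries. Of them Ovgp1 stood at 3033 ± 350 and 2660 ± 721 CPM. The share of Odf2 and Spata18 RNA that comes from ciliated or oviduct cells was not tested.

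**Figure D5:**
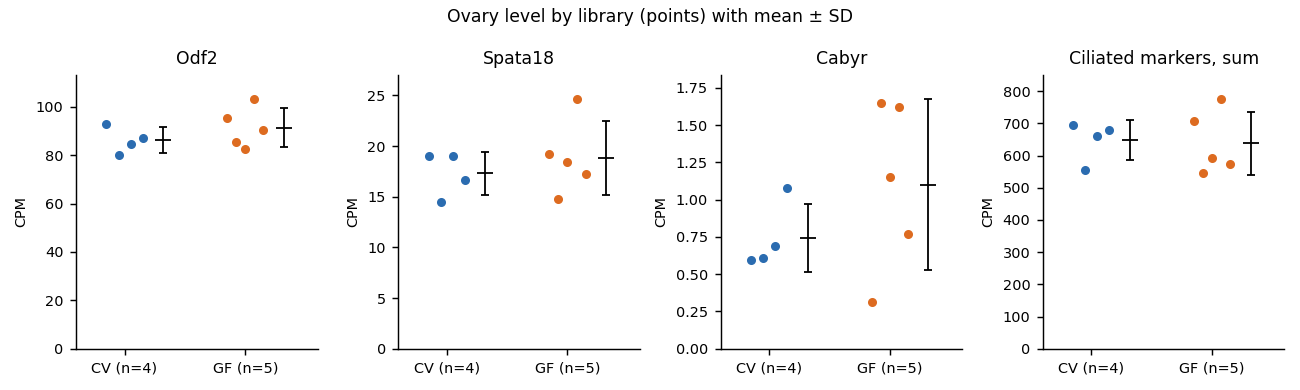
Ovary levels in CPM (y axis) of Odf2, Spata18, Cabyr and the sum of 16 ciliated-cell markers in 4 CV (blue) and 5 GF (orange) libraries, 1 point per library, with mean and SD. The groups overlap in every panel, and the same GF library is highest for Odf2, Spata18 and the marker sum.

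The test of whether the germ-free difference is unlike in testis and ovary called 0 of the 10 genes, and 0.132% of 21977 genes. No member had an unadjusted edgeR p under 0.05, against 1524 of all genes, and DESeq2 and limma-voom also called 0. For the 3 genes with an ovarian test, the testis difference less the ovary difference was -0.12 (SE 0.0891) for Odf2, -0.25 (SE 0.157) for Spata18 and -0.67 (SE 0.369) for Cabyr on the log2 scale, at edgeR adjusted p-values of 0.858, 0.804 and 0.769. The falls of Spata18 and Cabyr in the testis are therefore not shown to differ from their values in the ovary. For the other 7 genes the ovary counts are too few for such a comparison.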

How the data were processed

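The authors deposited 1 table of raw exon counts, whole numbers for each gene in 16 libraries. RNA was prepared with a stranded, ribosome-depleted total RNA kit, per the labels' protocols, and STAR 2.4.0i and mm10 are named per the submitters' processing notes. Not given in the sources used here were the counting tool, annotation and strand setting.

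Counts were tested with edgeR 4.0.16 in R 4.3.3 (TMM, filterByExpr, robust quasi-likelihood F test) within each contrast, with Benjamini-Hochberg adjustment over all genes tested and calls at 0.05. The script was tested on simulated data. The interaction used all 16 libraries. CPM, SD and counting intervals were computed from the same counts, positions and lengths from GENCODE M21 on GRCm38 (36308 genes matched), and promoter letters from RefSeq. Replicate pairs differed by more than sampling noise (chi-square per degree of freedom 2.37 to 34.3).

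Named genes were the 10 members, up to 4 called genes of each list by smallest p, or else its 2 highest, and the 5 genes most alike. Actrt3 was named outside this rule after its values were seen. The members and lists were chosen with earlier results of these data known. For some lists the testis calls are not given above. As called higher and lower of those tested, centrosome partners of Odf2 gave 2 and 1 of 13 (Cntrl and Pcnt higher, Cep83 lower). The somatic ciliated cell list gave 2 and 4 of 13, oviduct 0 and 1 of 5, oocyte 0 and 0 of 3 and epididymis 0 and 0 of 2. The 4 lower, Foxj1, 1700007K13Rik, Cfap126 and Fam183b, stayed called whichever library was left out. The ciliated and oviduct lists are named for the ovary and do not measure such cells in the testis. In CV testes Rsph1 of the ciliated list stood at 662 ± 19.6 and Sntn at 0.0749 ± 0.0439 CPM, and Pax8 of the oviduct list at 0.149 ± 0.0294 CPM. Without GF testis 1, the calls of Pcnt and of Epcam, the gene called from the oviduct list, were lost.

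Libraries carry replicate numbers. Same-numbered ovary libraries deviated together weakly (r 0.2 to 0.367 in 4 pairs), and number 3 was not best with its own number. The labels state no pairing, and the ovary tests given above used none. Alternatives were RLE, upper-quartile and total count scaling, no filter, DESeq2 1.42.0, limma-voom 3.58.1, a replicate block, a joint fit and leaving out each library.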

Additional observations from a re-analysis of the deposited data

Results flagged for a closer look

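Of 29 sets of values (a gene in a group of 4 or 5 libraries), 4 had 1 library far from the rest. All 4 lie in the ovary at a few counts per library. Odf3 stood at 0.257 CPM in GF ovary 5, from 4 counts, with 0 or 1 count in the other GF ovaries. Odf4 stood at 0.144 CPM in GF ovary 3, from 2 counts, with 0 in the other GF ovaries. Akap3 was at 0 CPM in GF ovary 1, with 1 count in each of the other 4. Fscn3 stood at 0.574 CPM in CV ovary 4, from 8 counts, with 2 or 3 counts in the other CV ovaries.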

How the results depend on the processing

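In each testis-to-ovary contrast the 150 values of the 10 members under the alternatives kept their direction and call, and the ovary and interaction counts of members were 0 in every alternative run. In the testis the count of members called (4) was 0 in the joint fit of all 16 libraries and 1 to 6 when 1 library was left out, and the count of genes called (1638) was 122 in the joint fit and 996 to 2084 with 1 library left out. In the ovary, where same-numbered libraries deviated together weakly, the replicate block called 91 genes, DESeq2 95 and the joint fit 93, in place of 32. For the interaction DESeq2 called 127 genes and the replicate block 16, in place of 29, and leaving out 1 library gave 13 to 37. In the testis, where libraries share only a number (r -0.0427 to 0.0142, none best with its own number), the replicate block, which leaves out CV testis 4, called 6 members and 1692 genes. Near 0, Akap3 in the testis turned negative with upper-quartile scaling (-0.0023), no filter (-0.0009), the replicate block (-0.0191) and the joint fit (-0.0147), and ranged from -0.0238 to 0.0173 with 1 library left out, where Fscn3 ranged from -0.0034 to 0.052. In the joint fit the adjusted p of Odf1, Cabyr, Spata18 and Oaz3 was 0.995 to 1. The 7 members with at most 8 ovary counts a library allow no statement on the ovary beyond that level.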
